A study of Ovis aries with 18 samples.

Results

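oar-miR-21, the sheep form of miR-21, was followed in extracellular vesicles of the uterine lumen and in the endometrium. It was chosen as the row whose name or seed name carries the number 21 exactly, which gave 1 row of 495 in the vesicle table and 1 row of 761 in the endometrium table. No other row of either table was listed with its seed, the short 5′ stretch by which a miRNA selects targets. Neither miR-590-5p, which has the same seed in mammals, nor a miR-21 star strand was matched. The ewes (Ovis aries) had been ovariectomized, so they had no ovarian hormones of their own, and all received progesterone (P4), 50 mg a day for 14 days. In the P4+RU486 group 50 mg of RU486 was added daily on days 8 to 14, after 7 days of P4 alone. RU486 (mifepristone) blocks the progesterone receptor. Each treatment had 5 ewes, with 5 endometrium libraries and 4 vesicle libraries. Vesicles were taken from a saline flush of the uterus by filtration and size exclusion, so they can come from any cell that sheds into the lumen.

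miR-21 is one of the most abundant miRNAs of many mammalian tissues and is often found in vesicles. Its transcript is made near the end of VMP1, a gene for a membrane protein of autophagy, from a promoter that the factors STAT3 and AP-1 can switch on during growth and inflammation. It represses PDCD4, an inhibitor of translation, and it is known for promoting cell survival. In the RefSeq gene table of the sheep assembly ARS-UI_Ramb_v3.0, which is not the build of the deposited tables, MIR21 lies on chromosome 11 within VMP1, and the next gene is TUBD1.

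The vesicle libraries held 97202 to 1062646 reads in listed rows, and the 3 shallowest were P01, P04 and R04. Libraries are named here as the columns are, because the columns do not give the ewe. The treatment was read from the initial of the column name alone, P01 to P04 as P4 and R01 to R04 as P4+RU486. No label states this, and all comparisons of treatments in vesicles rest on it. P01 stood apart, with an adjusted library size that made its values sum to 763696 where the others summed to 931062 to 1167749. Among rows matched by name or seed to markers of other cells, the leukocyte rows took 1.94% of the reads in P01 and 0.215% to 0.572% in the others. Most of this was miR-150, at 13655 normalized CPM in P01 and 1511 to 4318 in the others. The row with the miR-342 seed was also highest in P01, at 935 against 534 to 906 elsewhere. The rows with the miR-155 and miR-142b seeds were not, at 181 and 47.1 in P01 and up to 266 and 86.3 elsewhere. Stromal rows took 0.111% in P01 and 0.00715% to 0.0604% in the others. In P01 all of it was miR-199a-3p, since the row with the miR-214 seed had no read there. The 5 epithelial rows of the miR-200 family took 0.932% in P01 and 0.992% to 2.59% elsewhere. Smooth muscle rows took 1.73% in P01 and 0.991% to 1.45% elsewhere, and the erythroid row with the miR-486 seed 0.451% and 0.0262% to 0.791%. Nearly all of the smooth muscle share was miR-143. In normalized CPM miR-143 was not highest in P01, at 13097 against 9673 to 16349 elsewhere. No vesicle row matched miR-126 (endothelium), miR-223 (myeloid cells), miR-451 or miR-144 (erythroid cells), or miR-141 and miR-429 (epithelium). Any of them may still be listed under a different miRNA that shares the seed. What part these cells or the depth have in the values of P01 was not tested.

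In vesicles miR-21 was an abundant miRNA, at nearly equal mean levels under both treatments when all 8 libraries were used. Its level in normalized CPM, reads scaled to an adjusted library size, was 6851 in P01, 17695 in P02, 15277 in P03 and 13681 in P04. With RU486 it was 12831 in R01, 15467 in R02, 11122 in R03 and 15076 in R04. All 4 P4+RU486 libraries lay inside the range of the P4 libraries, P02 was the highest of all 8 and P01 the lowest. The means were 13376 ± 4652 under P4 and 13624 ± 2033 under P4+RU486 (SD, n = 4 each), a ratio of 1.02. Across the 8 libraries the highest value was 2.58 times the lowest, and 1.59 times without P01.

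These values rest on 872 reads of miR-21 in P01, 9452 in P02, 13902 in P03 and 1434 in P04, and on 2975, 4940, 2326 and 1444 in R01 to R04. The counting error is therefore small beside the range across ewes. As a share of the reads in listed rows, miR-21 took 0.897% in P01 (exact binomial 95% interval 0.839% to 0.958%), 1.65% in P02 (1.62% to 1.69%), 1.31% in P03 (1.29% to 1.33%) and 1.47% in P04 (1.39% to 1.55%). In R01 to R04 the shares were 1.22% (1.17% to 1.26%), 1.504% (1.46% to 1.55%), 1.13% (1.09% to 1.18%) and 1.43% (1.35% to 1.502%). The interval of P01 lay below those of all other libraries, so its low value exceeds counting error. PCR copies of a molecule were not told apart, so these intervals cover counting error only. The mean share was 1.33% ± 0.322 under P4 and 1.32% ± 0.174 under P4+RU486 (SD, n = 4 each), a difference smaller than the spread (2-sided exact permutation p = 0.943, where 4 against 4 can reach 0.0286). In relative data such as these, less miR-21 and more of the other miRNAs cannot be told apart, and the number of vesicles is not given.

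**Figure D1:**
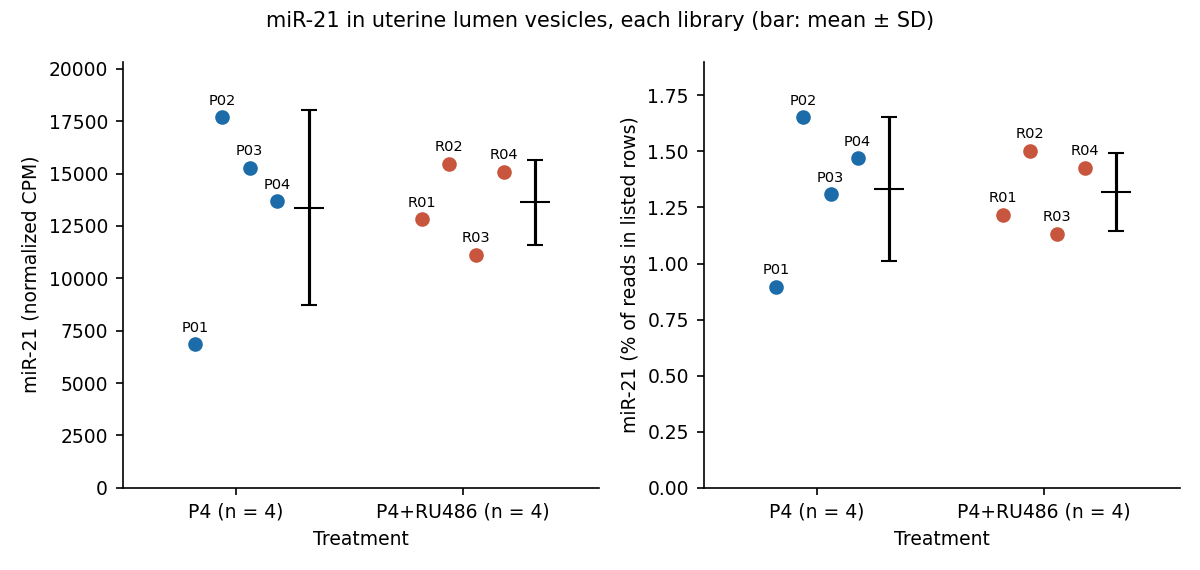
Level (left, normalized CPM) and share of reads (right, percent) of miR-21 in each vesicle library by treatment, with the mean ± SD of each treatment beside the points. P01 is the lowest point in both panels at 6851 and 0.897%, and the 4 P4+RU486 libraries lie within the range of the P4 libraries.

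The comparison of treatments asked whether adding RU486 to P4 in the second week changed miR-21 in the vesicles, and no change was detected. The log2 difference, P4+RU486 minus P4 on the log2(value + 1) scale, was 0.10 (SE 0.29, limma adjusted p = 0.913). Its 95% interval ran from -0.53 to 0.73, or from 0.691-fold to 1.66-fold, so changes within that range were not excluded. The interval is for this row alone and does not mark the smallest change that could be detected. The test was adjusted over all 229 rows, so a change beyond that range could also have missed the threshold. Of the 229 rows tested, 1 passed (0.437%), and miR-21 was not that row. With all 8 libraries, 26 of the 229 rows had a smaller absolute difference than miR-21, and the median absolute difference was 0.40. The libraries of both treatments overlapped for miR-21, while they did not overlap in 23 of the 229 rows (10.0%).

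Both the sign and the size of this difference depended on P01, so its small size with all 8 libraries does not make miR-21 one of the least changed rows. Without P01 the P4 mean was 15551 ± 2021 (SD, n = 3) and the log2 difference turned to -0.20 (SE 0.21, limma adjusted p = 0.633). Without the 3 shallowest libraries it was -0.34 (SE 0.22, limma adjusted p = 0.466). The mean level was a little higher and the mean share a little lower with RU486 when all 8 libraries were used, and neither direction passed a test.

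**Figure D2:**
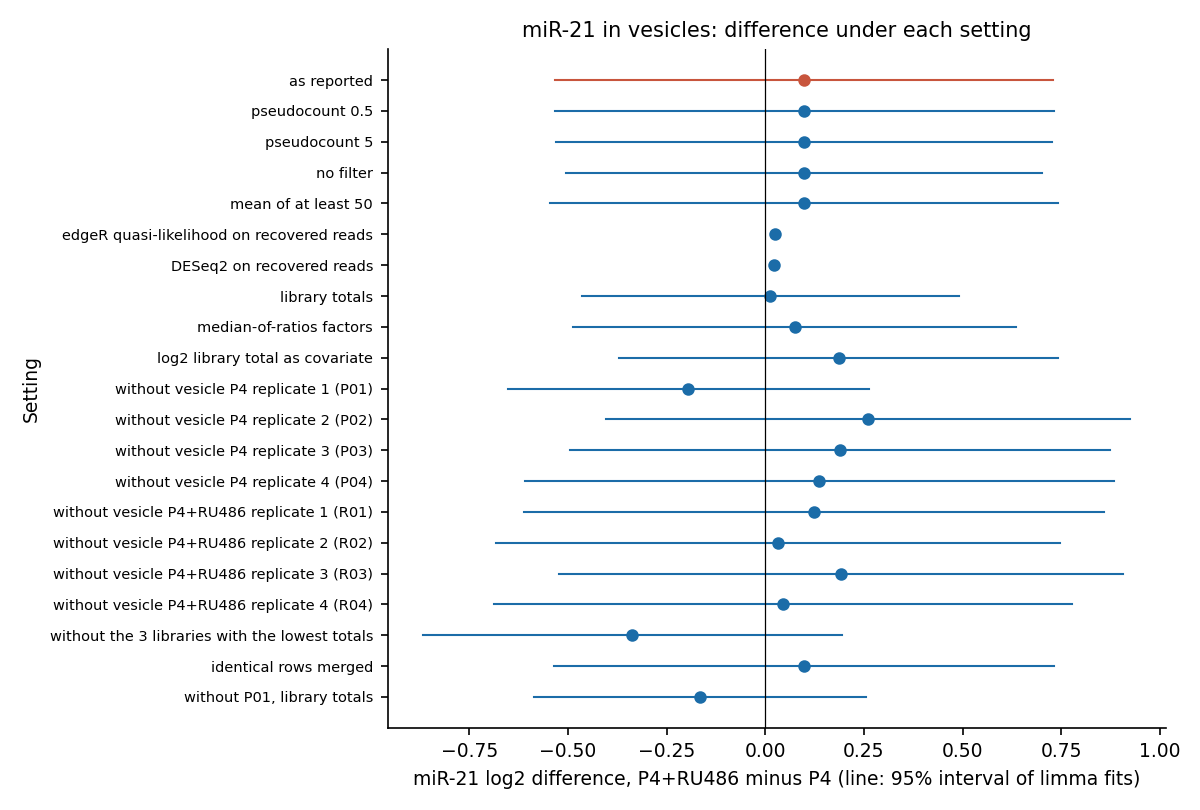
The log2 difference of miR-21 in vesicles (horizontal axis, P4+RU486 minus P4) under each setting, with the 95% interval of the limma fits as a line and no line for edgeR and DESeq2. Estimates run from -0.34 to 0.26, and the interval of each limma fit crosses 0.

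The spread of miR-21 between ewes depended on P01. With all 8 libraries its residual SD in the fit was 0.46 on the log2 scale, against a median of 0.66 over the 229 rows tested, of which 68 (29.7%) had a smaller one. Among the 64 rows with a mean of at least 1000 normalized CPM the median residual SD was 0.37, and 44 of them varied less than miR-21. Without P01 its residual SD was 0.21, against medians of 0.59 over 225 rows and 0.30 over the 64 abundant ones. Of these rows 13 and 11 varied less than miR-21. P01 was the lowest library of miR-21, so leaving it out lowers the spread of miR-21 by that choice itself. The counts without P01 are thus no measure of how steady miR-21 is beside other rows.

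By mean level miR-21 ranked 13 of 495 vesicle rows, and by mean share it also ranked 13. Of the 495 rows, 123 repeat the values of another row in all 8 libraries. Above miR-21, 10_3805 and X_35741, both with the seed of miR-92a, hold equal values at ranks 5 and 6. Ranks, shares and the sum over the top rows count each of these repeats. Within libraries its rank was 23 in P01, 12 in P02, 15 in P03 and 13 in P04, and 13, 12, 15 and 13 in R01 to R04. Its place was thus 12 to 15 in 7 libraries and lower in P01. miR-10a, which is encoded in a HOX gene cluster and led each of the 8 libraries, was on average 20.6 times as high. The mean share of miR-21 was 1.33% ± 0.240 (SD, n = 8), where the 10 most abundant rows together took 68.8%. Values are reads per row with no length term, and all rows are short RNAs of similar length.

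**Figure D3:**
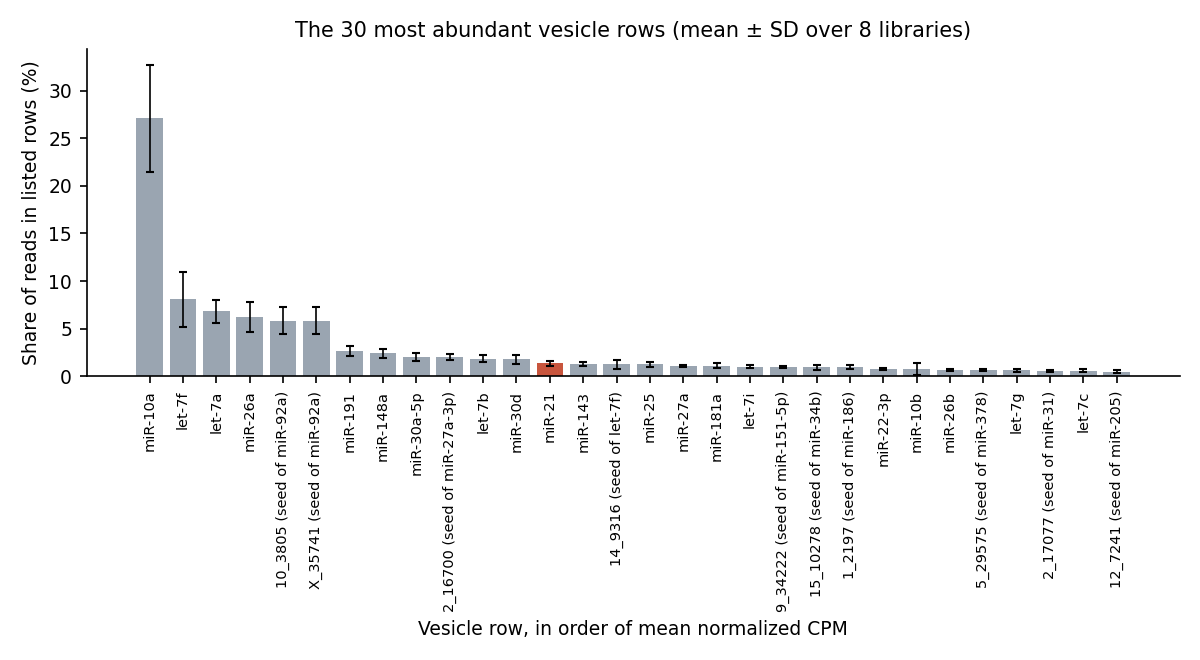
Mean share of reads (percent, vertical axis) of the 30 most abundant vesicle rows in order of mean level, with the SD over 8 libraries as error bars. miR-21 (red) stands at rank 13 with 1.33%, on the flat part of the curve that follows miR-10a at 27.1%.

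The 3 rows directly above miR-21 and the 3 below were chosen by their mean level in these same libraries, which sets the direction of their ratios, so they are described with no test. The row 2_16700, with the seed of miR-27a-3p, a regulator of lipid and growth genes, averaged 20007 ± 4867 (SD, n = 8) and was above miR-21 in 8 of 8 libraries. The log2 ratio of its value to that of miR-21 averaged 0.58 with an SD of 0.29 over the libraries. let-7b, of the let-7 family that restrains growth genes, averaged 18262 ± 2690 (SD, n = 8) and was also above in 8 of 8, with a log2 ratio of 0.47 (SD 0.47). miR-30d averaged 17559 ± 4456 (SD, n = 8) and was above in 6 of 8, with a log2 ratio of 0.39 (SD 0.46).

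Below miR-21 came miR-143, abundant in smooth muscle, which averaged 12555 ± 2199 (SD, n = 8). The row 14_9316, with the seed of let-7f, averaged 12472 ± 5110 (SD, n = 8). miR-25, of the miR-25 and miR-92 seed family, averaged 12270 ± 1685 (SD, n = 8). Over all 8 libraries their log2 ratios to miR-21 were -0.07, -0.18 and -0.10, with SDs of 0.46, 0.64 and 0.49. With P01 included, the mean ratio of each was thus smaller than its spread. miR-143 and miR-25 were each above miR-21 in 2 of 8 libraries, and 14_9316 in 3. In P01 miR-143 was at 13097 and miR-25 at 13741, near their own means, where miR-21 was at 6851. let-7b at 17576 and miR-30d at 16562 were also near theirs. 14_9316 and 2_16700 were lower in P01 as miR-21 was, at 7385 and 13301 against means of 12472 and 20007. Without P01 the log2 ratios of miR-143, 14_9316 and miR-25 were -0.22, -0.22 and -0.26, and their spread without P01 is not given here.

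**Figure D4:**
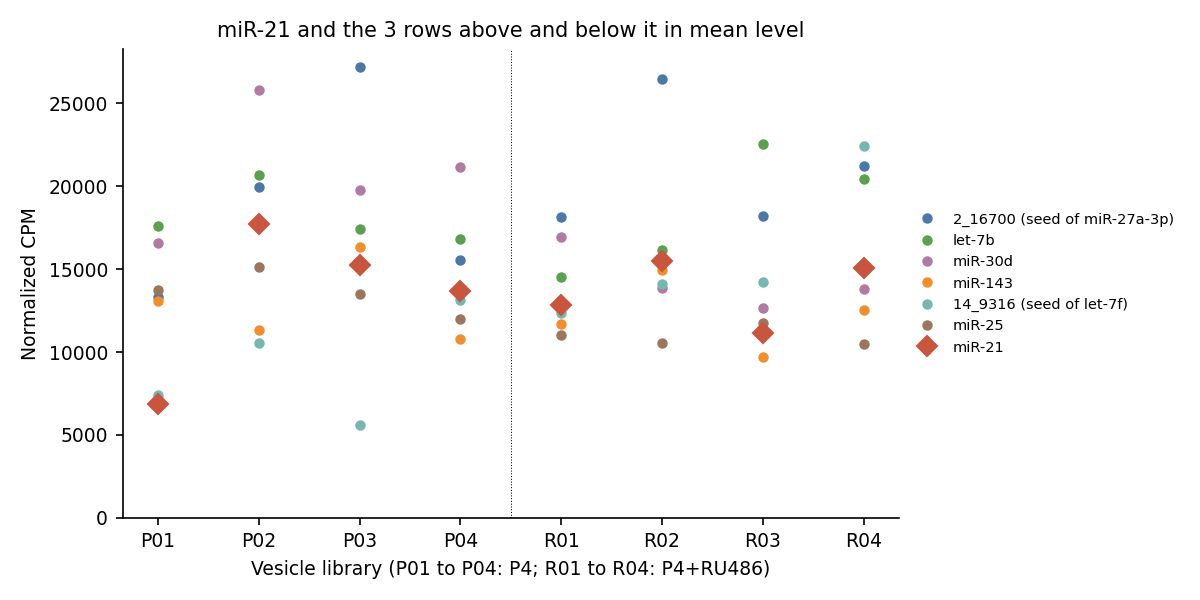
Normalized CPM (vertical axis) of miR-21 (red diamonds) and of the 3 rows above and 3 below it in mean level (circles), in each vesicle library, with the treatments parted by the dotted line. miR-21 is the lowest of the 7 rows in P01 at 6851 and lies among them in the other libraries.

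Rows with a pattern like that of miR-21 were ranked by Pearson r on log2(value + 1) over the 8 vesicle libraries, among 228 rows with a mean of at least 10. The rows are given as a description with no test, since they are the extremes of that ranking and all share the same libraries and depths. The median r was 0.13. Highest was 10_4035, with the seed of miR-16b (r = 0.95, Spearman rho = 0.88), at 23.6 in P01, which is 3 reads, and 52.6 to 122 in the others. Next was 16_11384, which shares its seed with miR-34b, known from multiciliated cells (r = 0.95, rho = 0.93). It stood at 157 in P01, 1281 in P02, 1122 in P03 and 601 in P04, and at 401, 667, 387 and 793 in R01 to R04. Like miR-21 it was highest in P02 and lowest in P01, and among the libraries with RU486 lowest in R03. The others were 10_4117, with no known seed (r = 0.88, rho = 0.79), X_35612, with the seed of miR-452-5p (r = 0.87, rho = 0.86), and miR-30a-3p, from the opposite arm of the miR-30a hairpin to its main strand (r = 0.86, rho = 0.71). In 10_4117 and X_35612, P01 held 2 reads.

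Without P01 and R03, the 2 libraries farthest from the median of miR-21, r over the remaining 6 was 0.75 for 10_4035, 0.89 for 16_11384, 0.80 for 10_4117, 0.26 for X_35612 and 0.58 for miR-30a-3p. The likeness of X_35612 thus rested on those 2 libraries. The lowest r belonged to 21_20098, with the seed of miR-7864 and 1 to 7 reads a library (r = -0.93, rho = -0.95, -0.88 without P01 and R03). miR-199a-3p, a stromal miRNA, was next (r = -0.86, rho = -0.76, -0.44 without P01 and R03). It was at 849 in P01, 131 in P02, 81.3 in P03 and 305 in P04, and at 168, 194, 579 and 136 in R01 to R04, so its high libraries were the 2 low ones of miR-21.

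miRNAs of 2 lists were compared with miR-21 in vesicles, matched by name or seed, and no row of either list passed the test with limma, edgeR or DESeq2. Over all 229 rows 1 passed with limma (0.437%), 1 with edgeR and 5 with DESeq2, so 0 calls does not set lists this short apart. The median log2 difference over all 229 rows was 0.04, with 118 rows higher and 111 lower with RU486 and 33 at an unadjusted limma p under 0.05. A row matched by seed need not be the named miRNA.

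The first list held miRNAs that inflammatory and growth signals induce, as they do miR-21. Of 5 vesicle rows 4 were tested, and 0 rose and 0 fell. All 4 had log2 differences below 0, from -0.72 to -0.38 with a median of -0.51, where that of miR-21 was 0.10. All 4 stayed below 0 under the other scalings and without P01. Among them 22_20322, with the seed of miR-146b, lay near the floor. It averaged 11.1 normalized CPM, had no read in P01 or R04, and its log2 difference was -0.41 (SE 1.31). At an unadjusted limma p under 0.05 were 2 of them, both of miR-221 name or seed. X_36142, with the seed of miR-221, a repressor of the receptor KIT, was at 3539 ± 822 under P4 and 2120 ± 302 under P4+RU486 (SD, n = 4 each) (log2 difference -0.72, limma adjusted p = 0.285). miR-221 itself was at 1533 ± 304 and 986 ± 97.0 in the same order (SD, n = 4 each) (log2 difference -0.62, limma adjusted p = 0.317). The row 1_2861, with the seed of miR-155, a miRNA of activated leukocytes, was at 200.3 ± 45.4 and 156.9 ± 52.7 in the same order (SD, n = 4 each). miR-21 was higher than each of these rows in mean level. No vesicle row matched miR-146a, miR-222, miR-223 or miR-212, though the tables may list such a row under a different miRNA that shares the seed.

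The second list held miRNAs often used as references for normalization. Of its 13 vesicle rows 11 were tested, 4 above 0 and 7 below, with a median of -0.04 and a range from -1.54 to 0.82, and none passed. On the recovered reads, edgeR and DESeq2 placed 6 of the 11 above 0, with medians of 0.13 and 0.12. At an unadjusted limma p under 0.05 were 2, miR-103 at 0.82 and X_35722, with the miR-16b seed, at -1.54. In the authors' deposited table for vesicles X_35722 is 1 of the 9 rows with an adjusted p under 0.05 (fold 2.19, adjusted p = 0.03), the only such row of this list. let-7a was at 59810 ± 9458 under P4 and 77438 ± 13084 under P4+RU486 (SD, n = 4 each), a log2 difference of 0.37. miR-191 was at 29581 ± 9775 and 24100 ± 2811 in the same order (SD, n = 4 each), a log2 difference of -0.24. 11_4449, with the seed of miR-423-3p, was at 3277 ± 838 and 3795 ± 1060 in the same order (SD, n = 4 each), a log2 difference of 0.21. With all 8 libraries the estimate for miR-21 was nearer 0 than those of these 3 rows, a difference that was not tested.

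**Figure D5:**
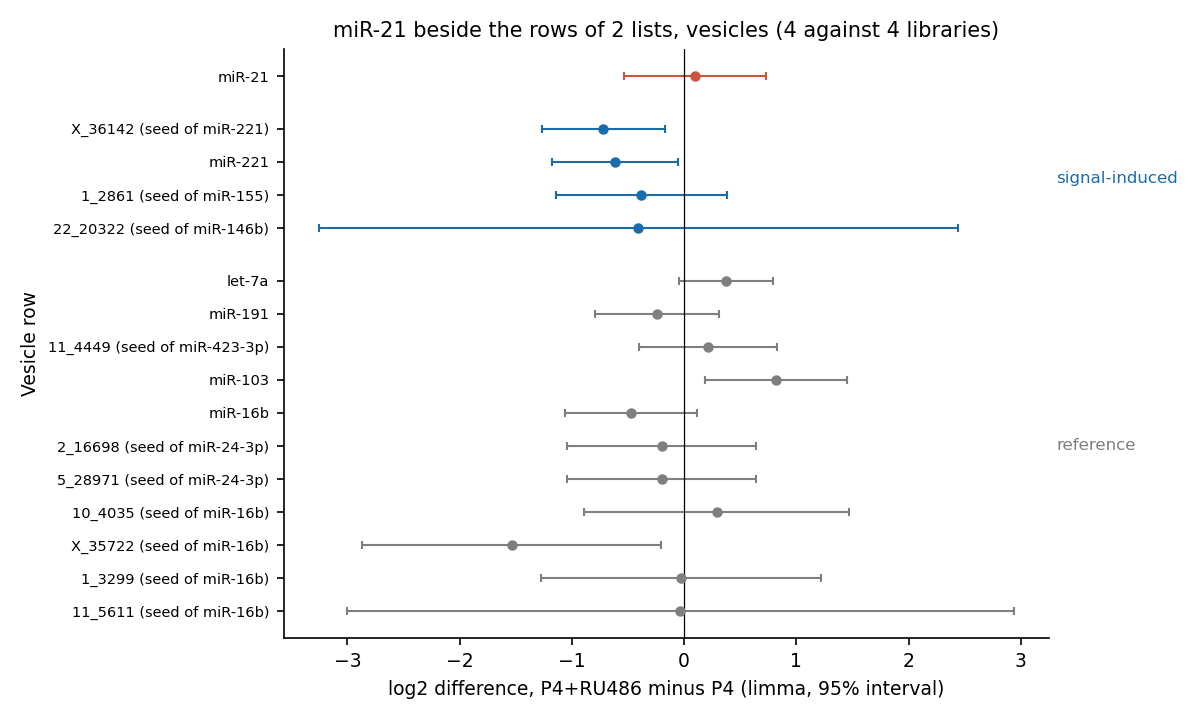
The log2 difference with its limma 95% interval (horizontal axis, P4+RU486 minus P4) for miR-21 and for the tested rows of the signal-induced and reference lists in vesicles. miR-21 lies at 0.10, the 4 signal-induced rows lie at -0.72 to -0.38, and the reference rows spread to both sides of 0.

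The authors' own comparison of the treatments is available for both sources. In the authors' deposited table for vesicles, miR-21 has a fold of 1 and an adjusted p of 1, and it stands in the last of 495 rows. It is 1 of 56 rows tied at that adjusted p. Fold sizes in this coding cannot fall below 1, and miR-21 is 1 of 3 rows at that lowest size. The median fold size of the authors' deposited vesicle table is 1.63. In the authors' deposited table for endometrium, miR-21 has a signed fold of -1.10 and an adjusted p of 0.888. There 381 of 761 rows have a smaller adjusted p and 193 (25.4%) a smaller fold size, with a median fold size of 1.25. The authors' deposited tables hold 9 rows with an adjusted p under 0.05 in vesicles (1.82%) and 9 in endometrium (1.18%), and miR-21 is in neither set. Ratios below 1 appear there as the negative of their inverse. With columns assigned by their initial, a positive vesicle fold is higher in P4. This held in 168 of 184 tested rows whose deposited means differed by over 10%. For endometrium the numerator is not named, so the sign does not say in which treatment miR-21 was higher.

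For the neighbours of miR-21 in level, the folds in the authors' deposited tables were mixed in size and none had an adjusted p under 0.05. For miR-143 the authors' deposited values are 1.06 in vesicles and -1.09 in endometrium, for let-7b -1.02 and -1.21, and for miR-25 1.24 and -1.30. For 2_16700 the authors' deposited values are -1.11 and -1.20, for miR-30d 1.45 and 1.06, and for 14_9316 -1.72 and -1.08. The row 16_11384, whose vesicle pattern was among the most like that of miR-21, has a fold of 1.49 in vesicles and 8.10 in endometrium in the authors' deposited tables. It is thus 1 of the 9 endometrium rows under 0.05 there, while miR-21 at -1.10 is not. Of the signal-induced list, 2 of 7 endometrium rows have a positive and 5 a negative fold in the authors' deposited table, beside 364 and 397 of all 761, and none of the 7 has an adjusted p under 0.05 there. The 10 endometrium columns of values per library match no sample label and were not analysed here, so no level, rank or share of miR-21 in endometrium is given. Neither a difference between vesicles and tissue nor a difference in their response was tested.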

How the data were processed

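Small RNA libraries from 18 samples were described, and the 8 vesicle libraries were analysed. The submitters' processing notes name cutadapt 1.11, edgeR and the build Oar_v3.1. For the aligner, the origin of the predicted loci and the read filters: not given in the sources used here. Judged from the values, the deposited signal in vesicles is a CPM whose library sizes the authors had adjusted. In each column 100% of values were whole multiples of what 1 read is worth (tolerance 0.1 read), 1.10 to 10.4 normalized CPM, so reads were recovered for shares and count tests. TMM factors from these reads differed from the deposited scaling by at most 4.25e-08. At a count of 0 the floor of 3 reads is 3.30 to 31.3 normalized CPM. The authors' deposited signed fold and adjusted p-value were copied as given. Columns of per-sample values without a matching label (10, endometrium) were not used.

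The test was limma 3.58.1 (trend, R 4.3.3) on log2(value + 1) across 229 rows with a mean of at least 10, which hold 99.9% of the reads, with Benjamini-Hochberg adjustment over all of them and a threshold of 0.05. Replicates are libraries of separate ewes, per the labels. Count tests on the recovered reads (edgeR 4.0.16 quasi-likelihood, DESeq2 1.42.0) were alternatives. Fits were tested on simulated data. Shares were compared by exact permutation (scipy 1.17.1). A planned sign-flip test of the neighbours in level is not used, since their level chose them. Named rows were miR-21, its 3 neighbours on each side in mean level, the 5 most and 2 least like it, and the 3 most abundant of each list. The member and the lists were chosen with earlier results of these data known. A list planned beside these is not reported here.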

Additional observations from a re-analysis of the deposited data

Results flagged for a closer look

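Among 42 groups of 4 libraries checked for 1 library far from the rest, neither the level nor the share of miR-21 was marked: in P4, the gap below the other libraries took 0.630 of the range of its level and 0.544 of that of its share; both are under Dixon's limit for groups of 4. Of the rows named beside it, 21_20098 stood at 31.43 normalized CPM (4 reads) in P01, far above the other P4 libraries. miR-199a-3p stood at 578.57 normalized CPM in R03, far above the other P4+RU486 libraries. Chance marks about 1 group in 20, and both rows were named for having the lowest correlation with miR-21.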

How the results depend on the processing

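The log2 difference of miR-21 missed the threshold in all 20 alternatives (adjusted p from 0.466 to 0.996). It kept its sign in 17, from 0.01 to 0.26. It turned without P01 (-0.20), without the 3 shallowest libraries (-0.34) and, chosen after seeing the data, without P01 under library totals (-0.16). Every setting that kept the sign held P01, and every setting that turned it left P01 out. The count of 17 is thus no measure of how stable the sign is. With 1 library left out the log2 difference ran from -0.20 to 0.26. edgeR gave 0.03 and DESeq2 0.02. Scaling to library totals moved the median of all rows by -0.08. The difference in share, -0.0119 percentage points, turned to 0.045 without the most abundant row, and with 1 library left out ran from -0.157 to 0.0952 (above 0 without P02, P04, R01 or R03: 0.0952, 0.034, 0.0225 and 0.0507). None passed. The cause of these turns was not tested. The number of rows past the threshold, 1 in the limma test, was 5 with DESeq2, 6 with depth as a covariate, 0 to 2 with 1 library left out and 0 without P01 under library totals. The lists had 0 calls also with sheep names alone. The alternatives for endometrium were not run, since its columns match no label. No paired analysis was possible because the treatments were given to different ewes and the library numbers do not pair them. P01, P04 and R04 held 872 to 1444 reads of miR-21 each, and the part of depth in the values was not tested.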
